A study of Mus musculus with 4 samples.

Results

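Most genes for subunits of respiratory complex I were lower in NFATc1-deficient than in wild-type osteoclast cultures. The genes were taken by symbol: all probe sets (groups of oligonucleotides that measure 1 transcript) whose single platform gene symbol starts with Nduf. This gave 74 of 22690 probe sets, for 39 of the 12394 genes with a single-symbol probe set. They fell by name into a core class (Ndufs and Ndufv, 21 probe sets for 9 genes), an accessory class (Ndufa, Ndufb and Ndufc, 47 for 25) and an assembly class (Ndufaf, 6 for 5). The comparison bears on how expression in osteoclasts differs without NFATc1, a transcription factor that RANK signalling induces and that osteoclast differentiation needs.

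Osteoclast precursors were sorted from bone marrow of C57BL/6 mice as CD11b-, CD3e- and B220-negative cells positive for c-Kit and c-Fms, seeded at 20000 per well and grown for 3 days in M-CSF plus RANKL; the series' design text calls them bone marrow macrophages. The wild-type group was NFATc1 fl/fl MxCre- and the deficient group NFATc1 fl/fl MxCre+, so that both groups carried the floxed allele. Excision was induced with polyIC through the interferon-responsive Mx promoter, which is not confined to osteoclasts, and the labels do not say whether the MxCre- mice also received polyIC. Each group had 2 arrays described as biological replicates: replicate 1 pooled cells from 3 mice and replicate 2 from 4. No label used here gives the age of the mice. The p-values rest on the spread between these pools, not between single mice. With 2 arrays per group, limma draws the spread of each probe set toward that of probe sets of like signal. Values are array signals on a linear scale made with MAS5, and tests were made on log2(signal + 23.3), which understates changes of dim probe sets.

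The arrays had median signals between 111.6 and 130.0, and arrays of the same genotype correlated at 0.982 and 0.984 over tested probe sets, against 0.935 to 0.950 between genotypes. Nfatc1 itself read 5433.6 and 6146.7 in the wild-type and 3018.2 and 4097.9 in the deficient cultures at its brighter probe set, 61.5% of the wild-type mean (log2 change -0.71, SE 0.15, limma adjusted p = 0.0102). Its transcript was therefore still measured at that probe set, and the position of the probe set relative to the deleted part was not analysed here. The osteoclast markers were present in wild-type cultures, and all 7 tested ones fell (median -1.30), but without NFATc1-deficient replicate 1 neither Ctsk (adjusted p = 0.0722) nor Mmp9 (adjusted p = 0.134) passed. The T cell markers had summed signals of 78 to 134.3 per array, and those of B cells 236.2 to 409.3. Hybridisation controls, transcripts added in fixed amounts, were higher in the mean of the deficient arrays by 0.22 to 0.37 on the log2 scale. The lower deficient array lay only 0.01 to 0.06 above the higher wild-type array. Scaling on these controls moved the median change of all tested probe sets from 0.04 to -0.24.

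Complex I is the entry point of the mitochondrial respiratory chain. It takes electrons from NADH through a flavin and a row of iron-sulfur clusters in its matrix arm, passes them to ubiquinone and pumps protons through its membrane arm. The core subunits carry out this chemistry and are conserved in bacteria. The accessory subunits surround and stabilise the core, and assembly factors help to build the complex without staying in it. Osteoclasts are known for their many mitochondria, which serve the energy demand of bone resorption.

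As a group, complex I probe sets were lower in the deficient cultures. Of 74 probe sets, 70 were bright enough to be tested, and 45 of these fell and 1 rose at an adjusted p under 0.05, whereas 11.4% of all 13578 tested probe sets fell and 12.8% rose. Their median log2 change was -0.46, against 0.04 over all tested probe sets, and 66 of the 70 had a negative change. In 60 of the 70 both deficient signals lay below both wild-type signals, a separation seen in 28.7% of all tested probe sets, and in 2 both lay above, against 34.4% of all. With 1 probe set per gene, the brightest, 25 of 39 genes fell and 1 rose, against 11.8% and 12.8% of all genes. Taken array against array, the median change was -0.38 for replicate 1 and -0.56 for replicate 2.

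The calls depended on the setting. The number of falling complex I probe sets was 18 with median scaling or without the variance trend, and it was also lower without either deficient array. All 45 probe sets that fell kept a negative change under each of 13 other settings, but this was largely fixed in advance. Filter, variance trend and replicate block leave the change itself as it is. In all 45 both deficient signals lay below both wild-type signals, so leaving out an array or changing the pseudocount cannot reverse the sign. Only another scaling could have done so. There were 15 probe sets that fell in each of the 13 settings, belonging to 11 genes: Ndufs1, Ndufs3, Ndufs8, Ndufv1, Ndufa4, Ndufa6, Ndufa10, Ndufb7, Ndufb9, Ndufb10 and Ndufc1. In these cultures, fewer osteoclasts and less complex I RNA per cell cannot be told apart. Beside this fall, the summed signal of the 7 osteoclast markers was 43326.8 and 49440.8 on the wild-type and 19104.5 and 26211.9 on the deficient arrays. That of 9 granulocyte markers, 4 of which rose, was 5051.7 and 6075.0 against 15467.4 and 7548.0, and the number that rose was 1 without NFATc1-deficient replicate 1, 7 without wild-type replicate 2 and 8 without NFATc1-deficient replicate 2. Of 8 macrophage markers 2 fell (0 with median scaling) and 1 rose, against 11.8% and 12.8% of all genes. Their summed signal was 33846.4 and 38491.6 on the wild-type and 29526.3 and 28797.1 on the deficient arrays. The 3 tested progenitor markers did not pass. The part of any of these cell types in the fall of complex I genes was not tested.

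**Figure D1:**
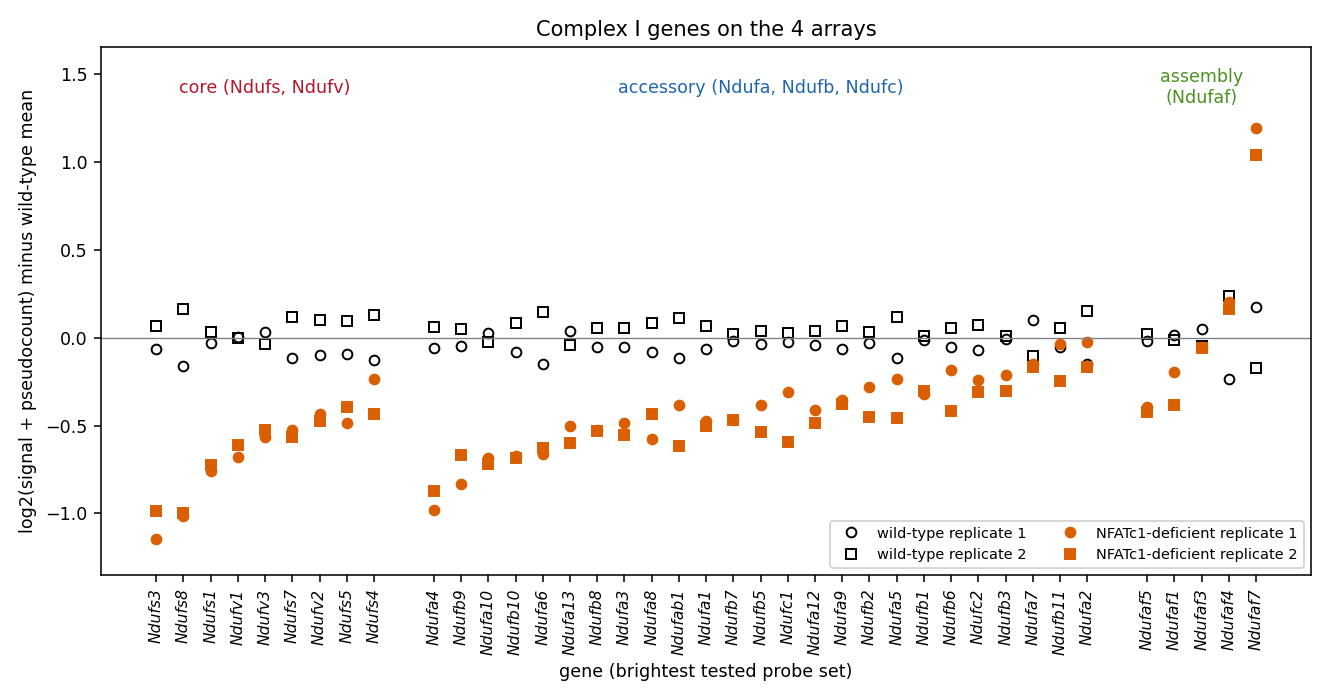
Each column is 1 complex I gene at its brightest tested probe set, and the vertical axis gives log2(signal + 23.3) on each of the 4 arrays minus the wild-type mean (open, wild-type; filled, NFATc1-deficient; circles, replicate 1; squares, replicate 2). The deficient arrays lie below both wild-type arrays for all 9 core genes and 23 of 25 accessory genes, and Ndufaf7 stands above them.

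The core class had the largest share of falls. Of its 21 probe sets 17 fell, 0 rose and 4 did not pass (median -0.54), and by gene 8 of 9 fell. At an unadjusted limma p under 0.05, 18 of the 21 were lower and 0 higher, against 16.7% and 19.8% of all tested probe sets. The 4 that did not pass were the 3 probe sets of Ndufs4 and the dimmest of Ndufs8. Not every Ndufs or Ndufv gene encodes a conserved core subunit: Ndufs4, Ndufs5, Ndufs6 and Ndufv3 encode accessory ones. All 6 conserved core genes described here fell at the brightest probe set, with a median of -0.69.

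Ndufs3, a subunit of the part of the matrix arm that binds ubiquinone, had signals of 3143.5 and 3436.7 in wild-type and 1472.9 and 1650.9 in deficient cultures. The deficient mean was 47.5% of the wild-type mean, a log2 change of -1.06 (SE 0.11, limma adjusted p = 0.0005), the largest fall among the 39 genes. Ndufs8, which holds a pair of iron-sulfur clusters on the path to ubiquinone, had signals of 7173.2 and 9007.4 against 3964.8 and 4007.1 at its brightest probe set, a change of -1.01 (SE 0.13, adjusted p = 0.00108). The wild-type and deficient signals of both genes did not overlap, and the gap between genotypes was wider than the gap between replicates.

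Ndufs8 was measured by 6 probe sets, of which 5 fell, by 0.62 to 1.01 on the log2 scale. The dimmest read 326.5 and 287.8 against 248.2 and 222.0 and did not pass (-0.35, adjusted p = 0.178), though its deficient signals also lay below the wild-type ones. One of the 5, with a change of -0.69, did not pass without the variance trend (adjusted p = 0.0508).

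The remaining core subunits fell by smaller amounts. Ndufs1, the large iron-sulfur subunit that receives electrons from the flavin site, had signals of 2619 and 2739.8 against 1575.3 and 1614.7 (change -0.74, SE 0.10, adjusted p = 0.00156). Ndufv1, which binds the flavin and NADH, had 4420.2 and 4401.7 against 2748.4 and 2879.9 (change -0.64, SE 0.10, adjusted p = 0.00265). Both genes have deficient signals at about the same level on the 2 arrays and passed under each alternative. The other Ndufv1 probe sets fell by 0.46 and 0.41 on the log2 scale, and neither passed without NFATc1-deficient replicate 1 (adjusted p = 0.0742 and 0.0636) or replicate 2 (0.0573 and 0.124). The first also did not pass without wild-type replicate 2 (0.053).

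Ndufs7, whose cluster hands electrons to ubiquinone, had signals of 2812.9 and 3318.9 against 2118.3 and 2058.9 (change -0.54, SE 0.11, adjusted p = 0.0102), and its other probe set fell by 0.69. Neither Ndufs7 probe set passed without the variance trend (adjusted p = 0.06 and 0.0593). Ndufv2, an iron-sulfur subunit beside the flavin site, had 5309.2 and 6112.1 against 4201.4 and 4088.1 (change -0.46, SE 0.11, adjusted p = 0.018). All 3 Ndufv2 probe sets fell, by 0.46 to 0.52 on the log2 scale, but none passed without NFATc1-deficient replicate 2 (adjusted p = 0.11 to 0.272), and the brightest did not pass without NFATc1-deficient replicate 1 (adjusted p = 0.0976). Both genes were lower on both deficient arrays than on either wild-type array.

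The accessory subunits of the core class by name were less uniform. Ndufv3 had signals of 3122.1 and 2977.6 against 2056.1 and 2111.5 (change -0.54, adjusted p = 0.00584). Ndufs5 had 2912.5 and 3321.4 against 2213.1 and 2358.8 (change -0.44, adjusted p = 0.0211, and 0.0747 without wild-type replicate 2 or 0.122 without NFATc1-deficient replicate 1). Ndufs4, an accessory subunit of the NADH-binding part, was the exception in the class. Its brightest probe set read 1612.4 and 1925.4 against 1494.8 and 1298.9 (change -0.33, 95% interval -0.63 to -0.04, adjusted p = 0.0956), and it passed without wild-type replicate 1 (adjusted p = 0.0289). A dimmer Ndufs4 probe set overlapped between genotypes (176.1 and 103.8 against 59.8 and 136.5), and another had a change of 0.10 (270.8 and 304.1 against 313.2 and 304.5).

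The stretches before the gene starts of 3 falling members are shown as examples of matches. They are those with the largest falls whose 250 bases before the start overlap no other gene and hold at least 1 of the searched motifs. Because a match was a condition, these stretches cannot show that falling members share letters. Ndufa4, Ndufb9, Ndufs1, Ndufa10 and Ndufb10 fell by more than Ndufa6 and Ndufv1 and had no match or no entry. Sequences are from RefSeq, build GRCm38.p6, all on the minus strand and printed 5′ to 3′, with the matched motifs in capitals. They lie at chr19:3912775-3913024 for Ndufs8, chr15:82354292-82354541 for Ndufa6 and chr19:4012756-4013005 for Ndufv1.
Ndufs8: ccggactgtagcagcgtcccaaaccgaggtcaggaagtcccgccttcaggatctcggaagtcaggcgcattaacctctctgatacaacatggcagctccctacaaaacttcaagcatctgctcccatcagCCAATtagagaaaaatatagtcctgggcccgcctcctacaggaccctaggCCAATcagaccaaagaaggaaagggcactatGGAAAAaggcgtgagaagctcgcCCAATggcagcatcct
Ndufa6: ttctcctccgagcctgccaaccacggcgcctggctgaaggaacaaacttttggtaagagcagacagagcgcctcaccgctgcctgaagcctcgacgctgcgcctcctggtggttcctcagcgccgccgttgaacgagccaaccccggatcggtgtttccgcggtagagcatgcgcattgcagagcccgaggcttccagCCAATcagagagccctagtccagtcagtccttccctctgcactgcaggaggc
Ndufv1: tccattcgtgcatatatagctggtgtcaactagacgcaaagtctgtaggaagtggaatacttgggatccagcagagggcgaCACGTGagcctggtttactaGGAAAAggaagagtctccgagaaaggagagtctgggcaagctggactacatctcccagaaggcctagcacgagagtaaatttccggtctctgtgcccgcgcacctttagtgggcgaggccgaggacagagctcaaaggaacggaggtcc

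The Ndufs8 stretch holds the CCAAT box at 120, 70 and 16 bases before the start and GGAAAA, the core letters of NFAT sites, at 39. The Ndufa6 stretch holds a CCAAT box at 52, and the Ndufv1 stretch holds the E-box CACGTG at 169 and GGAAAA at 149. Motifs were searched on both strands in the 250 bases before the start, for the 36 of 39 members with an entry and for all 27025 genes of the table. GGAAAA was found for 16.7% of members against 22.9% of all genes, CCAAT for 27.8% against 37.5%, and CACGTG for 5.56% against 6.86%. The GABP core CCGGAAG was found for 4 of 36 members (11.1%) against 7.83% of all genes. The NRF1 site was found for 4 (11.1%) against 4.23%, and the YY1 letters ATGGCGGC for 1 (2.78%) against 1.19%. No difference in share was tested. The ERR response element TNAAGGTCA was found for 0 of 36 members and 1.3% of all genes. Both CCGGAAG and GGAAAA contain the letters GGAA, and a match describes letters, not binding.

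The genes that face complex I genes were set beside them. For 10 members the start of a gene on the opposite strand lay within 500 bases upstream, and 6 of these neighbours were tested: 0 fell, 1 rose and 5 did not pass in the limma fit, and at an unadjusted p under 0.05 the counts were 0 lower and 1 higher. With 11.8% of all genes lower and 12.8% higher, such counts among 6 genes are near the background and are no result about these neighbours. The start of Kbtbd4 lies 19 bases from that of Ndufs3, and it had signals of 402.1 and 401.2 in wild-type and 419.8 and 471.2 in deficient cultures (change 0.14, SE 0.15, adjusted p = 0.538), while Ndufs3 fell by 1.06 on the log2 scale. Mrpl47, which faces Ndufb5, had a change of -0.04 (SE 0.13, adjusted p = 0.873). Esf1, which faces the assembly factor gene Ndufaf5, rose from 864 and 854.9 to 1282 and 1213.6 (change 0.53, SE 0.11, adjusted p = 0.0103). The difference between facing genes was not tested.

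Among accessory subunits 28 of 43 tested probe sets fell, 0 rose and 15 did not pass, with a median of -0.45 and a range from -0.93 to 0.04. At an unadjusted limma p under 0.05, 34 were lower and 0 higher, against the same 16.7% and 19.8%. By gene 17 of 25 fell. The 4 probe sets too dim to test belonged to Ndufa10, Ndufa12, Ndufab1 and Ndufb9, each of which had a brighter one. By family, 10 of 13 Ndufa genes, 6 of 10 Ndufb genes and 1 of 2 Ndufc genes fell at the brightest probe set. The difference between the core and accessory medians was not tested.

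The largest accessory fall was that of Ndufa4, from 5544.7 and 6028.2 to 2919.9 and 3151.2, or 52.5% of the wild-type mean (change -0.93, SE 0.11, adjusted p = 0.000713). Ndufa4 carries a complex I name but its protein is known as a subunit of cytochrome c oxidase, complex IV. Ndufb9, a membrane-arm subunit, fell from 5389.2 and 5765.7 to 3120.3 and 3497.6 (change -0.75, SE 0.11, adjusted p = 0.00193), with -0.77 at another probe set. Ndufa10, which resembles nucleoside kinases, fell from 4579.5 and 4416.1 to 2791.3 and 2724.2 (change -0.70, SE 0.10, adjusted p = 0.00176). Ndufb10, also of the membrane arm, fell from 3111.4 and 3482.8 to 2058.4 and 2042.5 (change -0.68, SE 0.11, adjusted p = 0.0028). All 4 genes were lower on both deficient arrays than on either wild-type array and passed under each alternative.

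At the other end of the class stood Ndufa2 and Ndufb11. Ndufa2, a subunit of the NADH-binding part, read 3452.6 and 4250.1 against 3758.2 and 3403.4, which overlap (change -0.10, 95% interval -0.39 to 0.19, adjusted p = 0.626). The brightest Ndufb11 probe set read 4574.8 and 4940.5 against 4625.7 and 3997.4 (change -0.14, adjusted p = 0.406). Another had -0.14 as well, and the remaining one fell from 3328.9 and 3660.9 to 2461 and 2712 (change -0.43, adjusted p = 0.0216, but 0.157 without NFATc1-deficient replicate 1 and 0.0569 without wild-type replicate 2). The signals overlapped between genotypes at all of these except the last.

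The other accessory genes lay between these ends. Those whose brightest probe set fell were Ndufa1 (-0.49), Ndufa3 (-0.52), Ndufa6 (-0.64), Ndufa8 (-0.50), Ndufa9 (-0.37), Ndufa12 (-0.45), Ndufa13 (-0.55), Ndufab1 (-0.50), Ndufb2 (-0.37), Ndufb5 (-0.46), Ndufb7 (-0.47), Ndufb8 (-0.53) and Ndufc1 (-0.45). Of these, at the brightest probe set, Ndufa6 alone passed with either deficient replicate left out and under every other alternative. Its signals were 2459.1 and 3023.9 in wild-type and 1717.1 and 1755 in deficient cultures. Those whose brightest probe set did not pass were Ndufa5 (-0.35), Ndufa7 (-0.16), Ndufb1 (-0.31), Ndufb3 (-0.26), Ndufb6 (-0.30) and Ndufc2 (-0.28), besides Ndufa2 and Ndufb11. All 8 had a negative change.

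**Figure D2:**
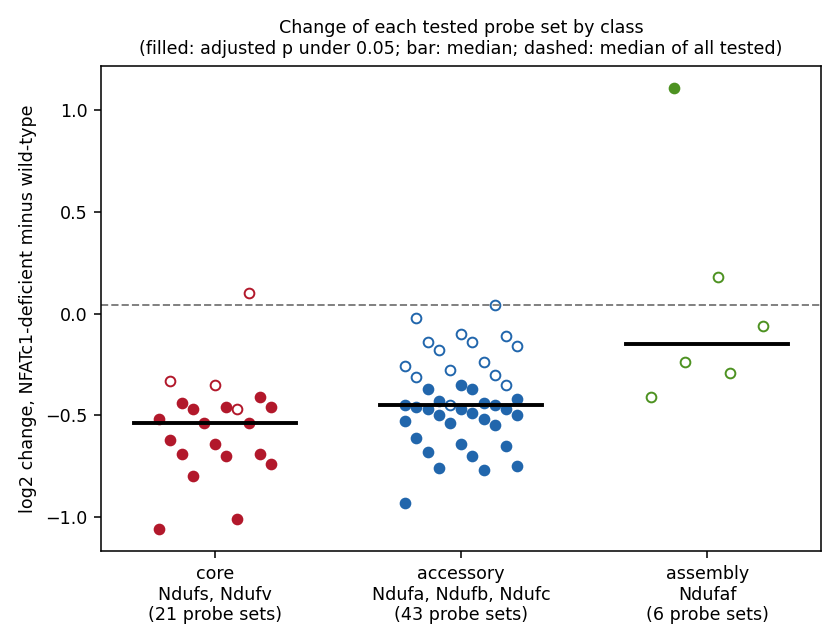
Each point is 1 tested probe set, placed by its log2 change (NFATc1-deficient minus wild-type) in the core, accessory or assembly class, with bars at the class medians of -0.54, -0.45 and -0.15 and a dashed line at 0.04, the median of all tested probe sets. Filled points passed the test: 17 of 21, 28 of 43 and 1 of 6.

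Grouping by place in the complex gave like values for both arms. Of 14 genes of the matrix arm 10 fell (median -0.50), and of 18 genes of the membrane arm 13 fell (median -0.47), at the brightest probe set of each gene. Within the matrix arm the genes ran from -1.06 for Ndufs3 to -0.10 for Ndufa2, and within the membrane arm from -0.75 for Ndufb9 to -0.14 for Ndufb11. The spread within either arm was wider than the gap between their medians, and the gap was not tested. ND5, a membrane-arm core subunit encoded in mitochondrial DNA, is no member by symbol and was measured by 1 probe set. It read 10645.5 and 7701.9 in wild-type and 5700 and 6228.9 in deficient cultures (change -0.60, SE 0.15, adjusted p = 0.0222), but did not pass without either deficient replicate (adjusted p up to 0.142).

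Probe sets of the same gene did not always give the same call. Of 19 genes with more than 1 tested probe set, 9 had both falling and non-passing probe sets and 3 had changes of both signs. Ndufa12 differed in both call and sign. The probe set ending in _s_at fell from 4794.4 and 5070.1 to 3695 and 3513.2 (change -0.45, adjusted p = 0.0135, and 0.0711 or 0.104 without NFATc1-deficient replicate 1 or 2). Its 2 probe sets ending in _x_at read 3399.1 and 4021.2 against 3872.1 and 3712.6 (change 0.04), and 3169.7 and 4255.7 against 3867.2 and 3413.7 (change -0.02), with overlap in both.

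Ndufa7, measured by 5 probe sets, ran from -0.16 to -0.45. The brightest read 3928.5 and 3404.5 against 3298.5 and 3248.8 and did not pass (adjusted p = 0.343). The 2 that fell read 3008.2 and 3098.7 against 2284.6 and 2518.6 (change -0.35, adjusted p = 0.0431) and 761.5 and 802.7 against 554.8 and 586 (change -0.44, adjusted p = 0.033). Both lost the call when any single array was left out, with adjusted p up to 0.271 and 0.13. At all 5 the deficient signals lay below the wild-type ones.

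Ndufab1, the mitochondrial acyl carrier protein, fell at its brightest probe set from 3543.5 and 4153.2 to 2937.1 and 2489.2 (change -0.50, adjusted p = 0.0212, and 0.134 without NFATc1-deficient replicate 2). A dim one read 367 and 251.9 against 342.8 and 228.4 and did not pass (adjusted p = 0.784). Ndufb2 fell at 1 probe set from 2217.6 and 2310.8 to 1858.6 and 1649.4 (change -0.37, adjusted p = 0.0407), and did not pass without wild-type replicate 2 or either deficient replicate (adjusted p = 0.059 to 0.21). Another read 1926.7 and 2145.3 against 1663.6 and 1775.7 (change -0.24, adjusted p = 0.153). The groups did not overlap for Ndufb2 and overlapped for the dim Ndufab1 probe set.

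For Ndufa5, Ndufb6 and Ndufc2 the dimmer probe set fell and the brighter did not pass. The dimmer Ndufa5 probe set read 1187.8 and 1596.8 against 951.2 and 923.8 (change -0.54, adjusted p = 0.0289), and the brighter 2463.2 and 2904 against 2267.2 and 1943.1. The dimmer Ndufb6 probe set read 3030.8 and 3833.6 against 2535.5 and 2388 (change -0.47, adjusted p = 0.0309), and the brighter 4971.5 and 5364 against 4533.9 and 3865.8. The dimmer Ndufc2 probe set read 6589.7 and 6605.4 against 5008.1 and 4816.4 (change -0.42, adjusted p = 0.0164), and the brighter 6434.7 and 7104.2 against 5723.8 and 5445.4. In all 6 the deficient signals lay below the wild-type ones, and no test compared the probe sets of a gene. Without NFATc1-deficient replicate 1 or 2 the falling ones of Ndufa5 (0.0549 and 0.0659), Ndufb6 (0.0713 and 0.116) and Ndufc2 (0.117 and 0.145) did not pass, nor those of Ndufa5 (0.162) and Ndufb6 (0.125) without wild-type replicate 2.

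Affymetrix marks with _x_at the probe sets that share probes with other transcripts. Of the 14 complex I probe sets so marked 7 fell (median -0.42), of 30 tested plain _at ones 20 fell (median -0.46), and of 20 marked _a_at, for variants of 1 gene, 15 fell (median -0.47). Of 6 marked _s_at, for probes common to several transcripts, 3 fell and 1 rose (median -0.36).

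**Figure D3:**
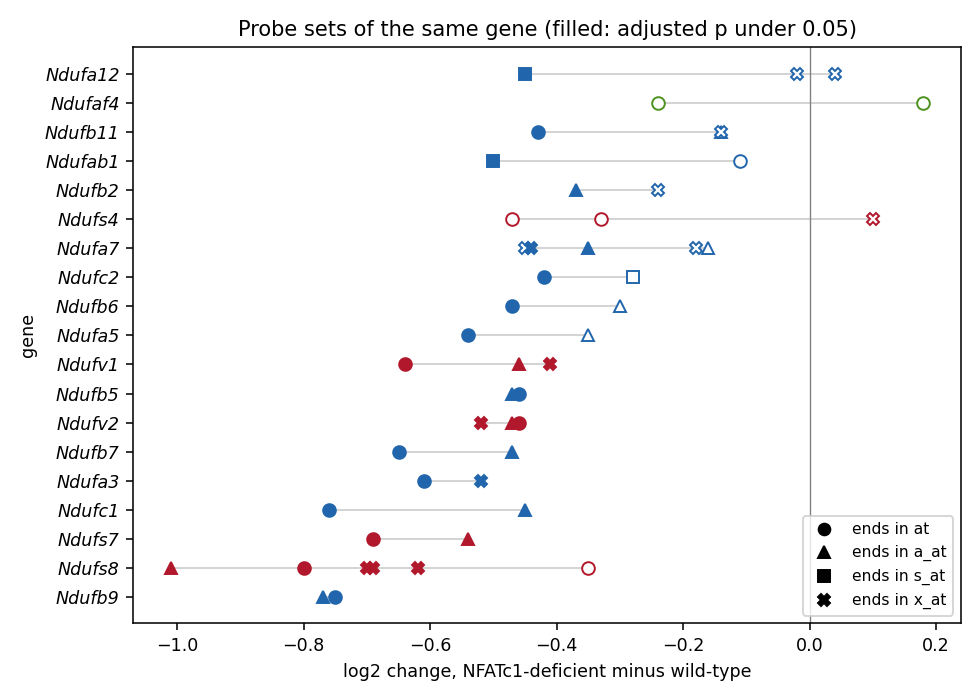
Each row is 1 of the 19 complex I genes with more than 1 tested probe set, and each symbol is a probe set placed by its log2 change (red, core; blue, accessory; green, assembly; shape, name ending; filled, adjusted p under 0.05). Ndufs8 runs from -1.01 to -0.35, Ndufa12 from -0.45 to 0.04 and Ndufb9 from -0.77 to -0.75.

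Of 6 probe sets for 5 Ndufaf assembly factor genes, all tested, 0 fell and 1 rose, with a median of -0.15. Counts this small are near the shares of all tested probe sets, 11.4% lower and 12.8% higher, and are no result about the class. At an unadjusted limma p under 0.05, 1 was lower and 1 higher, against 16.7% and 19.8% of all tested probe sets. Both deficient signals lay below both wild-type ones in 4 of the 6, against 28.7% of all tested probe sets. They lay above in 1, against 34.4% of all. Assembly probe sets were dimmer, with 5 of 6 under a mean signal of 1000, where 9.04% of all tested probe sets fell, against 18.1% at or above 1000. Among the subunits, 1 of 6 probe sets under 1000 fell, and 44 of 58 at or above it. The difference between assembly factors and subunits was not tested.

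Ndufaf7, a methyltransferase that acts during assembly, was the single member that rose. Its signals were 118.7 and 88.5 in wild-type and 264.6 and 235 in deficient cultures, a 2.41-fold difference in means (log2 change 1.11, SE 0.22, adjusted p = 0.00735). The groups did not overlap. The rise passed when scaled on hybridisation controls (adjusted p = 0.0363), but without NFATc1-deficient replicate 1 it did not pass (1.04, adjusted p = 0.0523), and the probe set was left out by the stricter filter. Its name ends in _s_at, which Affymetrix gives to probe sets shared by several transcripts.

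The other assembly factors did not pass. Ndufaf5, which hydroxylates Ndufs7, read 458.4 and 470.2 against 347.8 and 339.9 (change -0.41, 95% interval -0.74 to -0.08, adjusted p = 0.0706). Ndufaf1, which helps to build the membrane arm, read 778.5 and 762.5 against 668.9 and 585.5 (change -0.29, 95% interval -0.58 to 0.00, adjusted p = 0.139). Both lay lower on the deficient arrays without overlap, and their intervals reach the median fall of the accessory class.

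Ndufaf3 and Ndufaf4 act together on the part that binds ubiquinone. Ndufaf3 read 596.1 and 557.2 against 554 and 553.3 (change -0.06, 95% interval -0.35 to 0.24, adjusted p = 0.801). The brighter Ndufaf4 probe set read 1065.6 and 1491.4 against 1455.6 and 1415.1 (change 0.18, 95% interval -0.17 to 0.54), and the dimmer 696.6 and 681.6 against 596.1 and 564.8 (change -0.24, 95% interval -0.52 to 0.05). The Ndufaf4 probe sets have changes of opposite sign, and neither passed. Of 9 tested complex I assembly genes with other names, 0 fell and 0 rose, which is near the 11.8% and 12.8% of all genes, with a median of 0.02 and the largest changes in Dmac1 (-0.22), Acad9 (0.19) and Tmem186 (0.18). At an unadjusted limma p under 0.05 the counts were also 0 and 0. None of those tested passed under the 13 other settings, in which their median ran from -0.27 to 0.04.

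Other parts of the respiratory chain were set beside complex I with 1 probe set per gene, where the background was 11.8% lower. In complex III, which takes electrons from ubiquinol, 8 of 9 genes fell (median -0.75), among them Uqcrh (-1.18), Uqcrfs1 (-0.90) and Uqcr10 (-0.79). In complex II, succinate dehydrogenase, 4 of 7 fell (median -0.40), and the list mixed subunit and assembly factor genes. The 4 that fell were the subunit genes Sdha (-0.81), Sdhd (-0.80), Sdhc (-0.52) and Sdhb (-0.40). Of these, Sdhc and Sdhb did not pass with median scaling (adjusted p = 0.089 and 0.311). The 3 that did not pass were the assembly factor genes Sdhaf1 (-0.30), Sdhaf2 (-0.31) and Sdhaf4 (-0.35). In complex IV 5 of 13 fell (median -0.26), among them Cox7a1 (-1.76), Cox8a (-0.77) and Cox5b (-0.48, adjusted p = 0.188 without NFATc1-deficient replicate 1). In complex V, ATP synthase, 5 of 15 fell (median -0.31), among them Atp5j (-0.73), Atp5d (-0.64, adjusted p = 0.0549 without NFATc1-deficient replicate 1) and Atp5g1 (-0.63). Some complex IV probe sets were dim. Cox7a1 read 221.2 and 232.3 in wild-type and 39.1 and 63.5 in deficient cultures. Cox6a2, Cox6b2 and Cox7c, which did not pass, had wild-type means of 109.0, 82.3 and 83.6. In the limma fit 0 genes of these 4 complexes rose, also at an unadjusted p under 0.05. Under the 13 other settings falls ranged from 7 to 9 genes for complex III, 2 to 5 for complex II, 2 to 8 for complex IV and 2 to 14 for complex V. Complex IV had 8 falls without wild-type replicate 1 and 2 without either deficient replicate. Complex V had 14 without wild-type replicate 1, 2 without NFATc1-deficient replicate 1 and 3 without NFATc1-deficient replicate 2.

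Genes that feed complex I or supply its clusters fell in part. Of 12 citric acid cycle genes 6 fell (median -0.40), among them Ogdh (-1.01), Idh3b (-0.69) and Cs (-0.62). Of 8 genes of iron-sulfur cluster assembly 4 fell (median -0.36), among them Isca1 (-0.82), Iscu (-0.54) and Isca2 (-0.50, adjusted p = 0.0839 without NFATc1-deficient replicate 2). With median scaling 1 of these 8 fell, and without wild-type replicate 2, 2 fell. The mitochondrial ribosome, which translates the subunits encoded in mitochondrial DNA, gave values nearer to the background. Its genes were taken by a symbol starting with Mrpl or Mrps. Of these 74 genes 4 fell, 0 rose and the median was -0.03 (9 lower and 2 higher at an unadjusted limma p under 0.05). The largest changes were those of Mrps36 (-0.94), Mrps18a (-0.65) and Mrpl4 (-0.63). Whether each product, that of Mrps36 included, is part of the ribosome was not examined.

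Of 10 tested regulators of mitochondrial genes 1 fell and 2 rose. These counts are near the 11.8% lower and 12.8% higher of all genes and are no result about the regulators as a group. Ppargc1b, a PGC-1 family coactivator of mitochondrial genes, had signals of 1707.4 and 1548 in wild-type and 190.5 and 359.1 in deficient cultures (change -2.53, SE 0.24, adjusted p = 0.000325). Ppargc1b was the single tested regulator that fell, and Ppargc1a, of the same family, was too dim to test. Yy1 (0.49, adjusted p = 0.00925) and Pprc1 (0.45, adjusted p = 0.0468) rose, but neither passed when scaled on hybridisation controls (adjusted p = 0.687 and 0.763). Yy1 did not pass without NFATc1-deficient replicate 1 (adjusted p = 0.0537), nor Pprc1 without wild-type replicate 2 (adjusted p = 0.218).

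**Figure D4:**
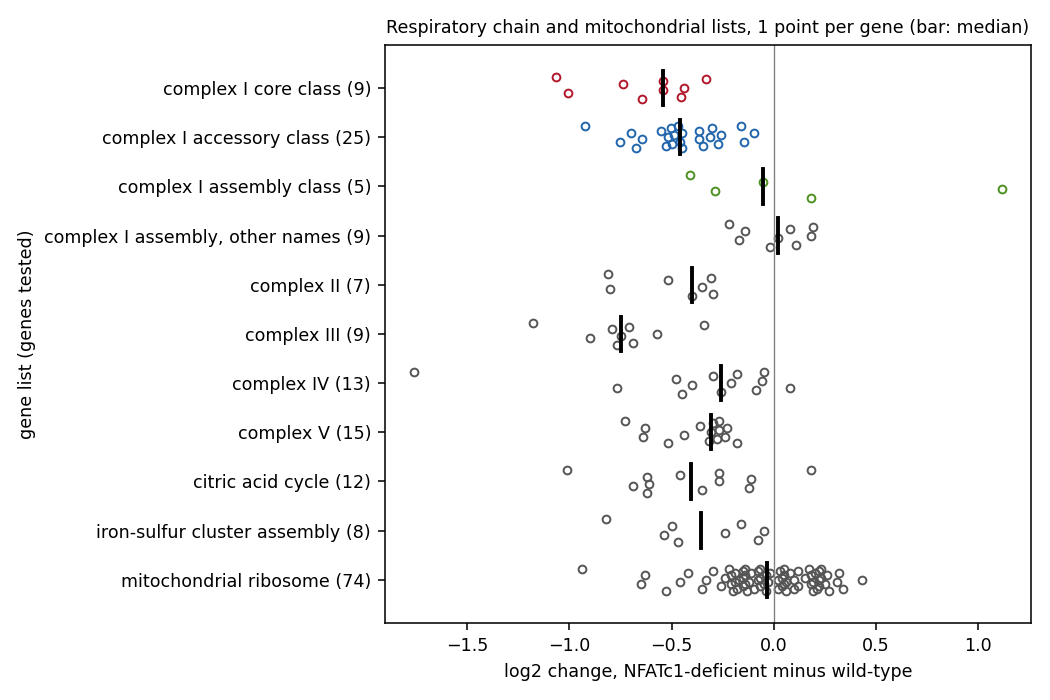
Each point is 1 gene at its brightest tested probe set, placed by log2 change (NFATc1-deficient minus wild-type) in the list named on the vertical axis with its number of genes tested, and bars mark medians. The medians run from -0.75 for complex III to 0.02 for complex I assembly genes with other names. Between them lie -0.54 and -0.46 for the complex I core and accessory classes, -0.06 for Ndufaf genes and -0.03 for the mitochondrial ribosome.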

How the data were processed

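Probe set intensities on a linear scale were deposited by the authors, made with MAS5 per the submitters' processing notes. The sources used here name no MAS5 version and give no detection calls. The trimmed mean of each array was 500.2. Names came from the array's platform annotation, in which 20393 of 22690 probe sets had 1 symbol, and Entrez numbers matched 20364 of these to RefSeq names of GRCm38.p6 with 0 symbols changed. After 64 control probe sets were left out, values were taken as log2(signal + 23.3), with the 25th percentile of the signals as pseudocount. A filter on the mean log2 value, at its 40th percentile, left 13578 probe sets for testing. The test was made in limma 3.58.1 under R 4.3.3 (lmFit and eBayes with an intensity trend, two-sided, Benjamini-Hochberg over all 13578, threshold 0.05), and every adjusted p comes from such a fit. The fit was tested on simulated data. The number of arrays limits the precision.

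Named genes were the conserved core genes, the 4 lowest and 2 highest changes of each class, genes whose probe sets differed in sign or call, the member that rose, and up to 3 genes of each list. The members, lists and tests were chosen with earlier results of these data known. Alternatives covered scaling, pseudocount, filter, variance trend, replicate block, single arrays left out, 1 probe set per gene and the class definition.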

Additional observations from a re-analysis of the deposited data

How the results depend on the processing

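Of the 45 complex I probe sets that fell, 18 did so with median scaling and 18 without the variance trend. With 1 probe set per gene 25 genes fell. With single arrays left out the count ran from 23 to 48 and the median change from -0.50 to -0.40. The core class had 17 falls, 9 with median scaling, 8 without the trend, 8 by gene and 12 to 18 with single arrays left out. The accessory class had 28, 9 with median scaling, 18 without a filter, 10 without the trend, 17 by gene and 11 to 30 with single arrays left out. The assembly class kept 0 falls in each of 13 settings, and its 1 rise was lost with the 60th percentile filter and without NFATc1-deficient replicate 1. Scaling on hybridisation controls moved the medians to -0.76 (all members), -0.84 (core), -0.75 (accessory) and -0.44 (assembly), beside a shift of all tested probe sets to -0.24. With the conserved core genes alone the core median was -0.63. The assembly median was -0.24 with the stricter filter and -0.06 by gene. Over all probe sets 1546 fell and 1739 rose, with 950 to 1532 and 864 to 1971 when single arrays were left out. Rises numbered 288 with scaling on controls, 1157 without a filter and 1015 without the trend. The causes were not tested.

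Same-numbered arrays share a number and the pool size in the labels, which do not say that they share animals, a litter or a day. The difference between replicates 1 and 2 in wild-type correlated at 0.13 with that in deficient cultures over 13578 probe sets. With replicate number as a block, 1805 probe sets fell and 2066 rose, and the replicate block gave 47 falls among complex I probe sets, 17 in the core and 30 in the accessory class. A lone array left in a group was assumed to vary like the other group.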

Other observations

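Probe sets assigned to several symbols stand outside the members. Of 8 that include an Nduf symbol, 7 were tested, 6 fell, 0 rose and 1, for Ndufb2 and Adck2, did not pass (log2 change 0.25, limma adjusted p = 0.554). The one for Ndufs6 and Ndufs6b read 2325.1 and 2454.9 in wild-type and 1831.9 and 1850.2 in deficient cultures (log2 change -0.37, limma adjusted p = 0.0297). For Ndufa11 and Ndufa11b the values were 2364.1 and 2766.4 against 1704.9 and 1743.6 (-0.56, adjusted p = 0.00871). A pair of probe sets for Ndufb4 and its close copies fell by 0.39 and 0.54 on the log2 scale. Which gene of each group was measured cannot be told from the symbols.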
